A study of Mus musculus with 2 samples.

Results

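The genes described here make, sense, take up and export cholesterol. They are 30 mouse genes, listed by symbol from their known roles and found by Ensembl ID in a deposited table of 19498 genes. All 30 were in the table, and 28 of them reached the floor used here, a deposited value of 33.0 in the higher library, which 11384 of all genes reached. The table comes from 4T1, a metastatic mouse mammary carcinoma line. It holds 1 library of control-treated cells and 1 of LY500307-treated cells, LY500307 being a selective estrogen receptor beta agonist. The study asked which RNAs differ between them. No allele or other agent is labelled in either group, and the labels state no dose, duration or vehicle. Ribosomal RNA-depleted total RNA was sequenced from cells of 1 line, so a difference cannot be assigned to fewer cells of a kind or to less RNA per cell.

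With 1 library per group there is no spread between cultures, and every difference below describes these 2 libraries. The deposited values are whole reads rescaled per library, from 14541874 recovered reads in control and 15104003 with LY500307. Each ratio carries a 95% interval, exact by Clopper-Pearson from its reads, which covers counting error only. Of 6 epithelial markers of the carcinoma line all reached the floor, and they summed to 52385 reads in control and 47840 with LY500307. Before scaling, Krt8 had 17073 and 14450 reads, Epcam 2195 and 2283, and Cdh1 4575 and 5248. Of the other markers, those of leucocytes summed to 94 reads in control and 110 with LY500307, those of endothelium to 8 and 11, those of fibroblasts to 346 and 353, and those of adipocytes to 3 and 0. Of the 8 leucocyte markers 5 were analysed, with Cd68 at 81 and 102 reads and Ptprc at 2 and 4. Among the 4 fibroblast markers only Pdgfra reached the floor, and it held most of their reads, 271 and 285. Of the 2 adipocyte markers 1 was analysed, and the hepatocyte markers were not analysed here.

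Cholesterol is built from acetyl-CoA. The mevalonate enzymes make isoprenoid units and farnesyl diphosphate, and the sterol enzymes turn that into squalene, lanosterol and cholesterol. The transcription factor SREBP2, encoded by Srebf2, drives most of these genes when sterol in the endoplasmic reticulum is low, after its escort protein Scap carries it to the Golgi. When sterol is plentiful, Insig1 and Insig2 hold the complex back. Cells that have too much cholesterol esterify it or export it through ABC transporters, whose genes answer to the oxysterol-sensing LXR receptors. Proliferating tumour cells use the pathway for membranes and for prenylated signalling proteins.

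The stretches that precede the annotated starts of several members show where letters known from SREBP2-driven genes occur. SREBP2 binds sterol regulatory elements, usually together with the factor NF-Y on nearby CCAAT boxes, and some of its targets carry an E-box. In each window, the 250 bases before a RefSeq start on build GRCm38.p6, both strands were searched for the core letters TCACNCCA, the E-box CACGTG and the box CCAAT, none of which overlapped another match in the sequences shown. Windows were found for 24 of the 30 members, 30 windows in all. The core was in 3 of these 30 windows, a share of 10%, against 3.67% of all 32851 windows. The E-box was in 6 windows, or 20%, against 6.02%, and CCAAT in 21 windows, or 70%, against 33.8%. Over the 10961 windows of genes that reached the floor, the core was in 3.33%, the E-box in 8.56% and CCAAT in 35.7%. The 6 member windows with an E-box include that of Abca1, which lay below the floor. A match describes letters and not binding. The sequences below, from RefSeq and written from 5′ to 3′ on the strand of the gene, belong to the 3 members of lower value that have a window (Mvd, Mvk and Srebf2), to the other holders of the core (Hmgcs1 and Msmo1) and to Insig1, and capitals mark every match.
Mvd, chr8:122443423-122443672, minus strand: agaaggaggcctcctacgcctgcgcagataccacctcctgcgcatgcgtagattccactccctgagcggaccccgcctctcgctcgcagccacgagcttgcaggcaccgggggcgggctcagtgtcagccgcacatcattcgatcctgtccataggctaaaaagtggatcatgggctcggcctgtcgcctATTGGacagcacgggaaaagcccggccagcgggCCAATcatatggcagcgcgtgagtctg
Mvk, chr5:114444019-114444268, plus strand: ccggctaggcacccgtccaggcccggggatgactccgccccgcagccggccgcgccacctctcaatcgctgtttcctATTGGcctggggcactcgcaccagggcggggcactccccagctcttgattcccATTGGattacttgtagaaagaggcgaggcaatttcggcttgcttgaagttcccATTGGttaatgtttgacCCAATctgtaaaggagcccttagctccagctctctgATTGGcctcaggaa
Srebf2, chr15:82147019-82147268, plus strand: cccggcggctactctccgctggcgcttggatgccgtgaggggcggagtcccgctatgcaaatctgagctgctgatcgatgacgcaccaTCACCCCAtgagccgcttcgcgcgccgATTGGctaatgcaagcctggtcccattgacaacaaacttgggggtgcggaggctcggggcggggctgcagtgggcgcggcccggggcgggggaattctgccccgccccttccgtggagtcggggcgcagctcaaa
Hmgcs1, chr13:119690101-119690350, plus strand: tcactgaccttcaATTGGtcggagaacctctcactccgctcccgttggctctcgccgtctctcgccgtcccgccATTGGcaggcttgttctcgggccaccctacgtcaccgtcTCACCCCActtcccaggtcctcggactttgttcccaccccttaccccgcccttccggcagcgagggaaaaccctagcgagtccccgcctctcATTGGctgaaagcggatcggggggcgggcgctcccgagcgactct
Msmo1, chr8:64733579-64733828, minus strand: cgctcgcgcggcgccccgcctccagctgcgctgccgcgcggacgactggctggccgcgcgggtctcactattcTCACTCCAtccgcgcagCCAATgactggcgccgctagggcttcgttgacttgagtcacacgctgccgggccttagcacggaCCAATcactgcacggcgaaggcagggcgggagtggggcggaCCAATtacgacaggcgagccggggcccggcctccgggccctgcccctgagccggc
Insig1, chr5:28071162-28071411, plus strand: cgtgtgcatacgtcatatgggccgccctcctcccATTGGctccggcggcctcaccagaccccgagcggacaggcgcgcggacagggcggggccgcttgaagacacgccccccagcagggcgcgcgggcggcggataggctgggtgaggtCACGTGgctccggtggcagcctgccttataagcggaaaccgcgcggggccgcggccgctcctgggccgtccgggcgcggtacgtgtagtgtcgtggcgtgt

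The core lay 162 bases before the start in Srebf2, 137 bases in Hmgcs1 and 177 bases in Msmo1. Mvk held 5 CCAAT boxes and Mvd 2, with no core and no E-box in either window. Insig1 held an E-box 101 bases before its start and a CCAAT box further out. Of the 3 annotated windows of Insig2, 1 held 3 CCAAT boxes and the others held no match. Among the 3 holders of the core, Hmgcs1 and Msmo1 stood at 94.0% and 90.5% of control, and Srebf2 at 78.3%.

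Most of the pathway stood slightly below control in the LY500307 library, 4 members were past the limit used here, and most transport and storage members stood near control. The 19 enzymes of synthesis summed to 92.1% of their control value (90.0% to 94.2%), where all 11384 genes kept summed to 97.8%. Differences are called here at a value of at most 80% of control, or at least 25% above it, after a pseudocount of 1.03 is added to both values. On that scale 4 of the 28 members at or above the floor were lower, namely Mvd, Fdps, Mvk and Srebf2, or 14.3%, beside 11.1% of the 11384 genes kept. The gene Ggps1 was the 1 member that was higher, or 3.57% of members, beside 7.15% of all genes. These shares lie near those of all genes, so the count of calls does not set the pathway apart. With a trend in transcript GC content and length subtracted, Mvk and Srebf2 were no longer past the limit, and the reads of Fdps are uncertain because another gene model shares its exons. At 1.5-fold, 2 members were lower (Mvd and Fdps, 7.14%, beside 1.97% of all genes) and none was higher (beside 1.8%).

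Small differences, not large ones, made up most of what was seen. The log2 ratio of LY500307-treated to control-treated value had a median of −0.09 over the 28 members, beside −0.02 over all genes. Of these members 21 lay below 0, or 75%, beside 52.8% of all genes. The counting interval lay wholly below control for 11 members, or 39.3%, beside 23.7% of all genes. It lay wholly above control for Ggps1 and Insig2, or 7.14%, beside 18.1% of all genes, and it spanned 1 for the other 15. Srebf2 was just past the limit of 80%, with a log2 ratio of −0.35, and Mylip and Insig1 were just short of it, with −0.31 and −0.31.

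**Figure D1:**
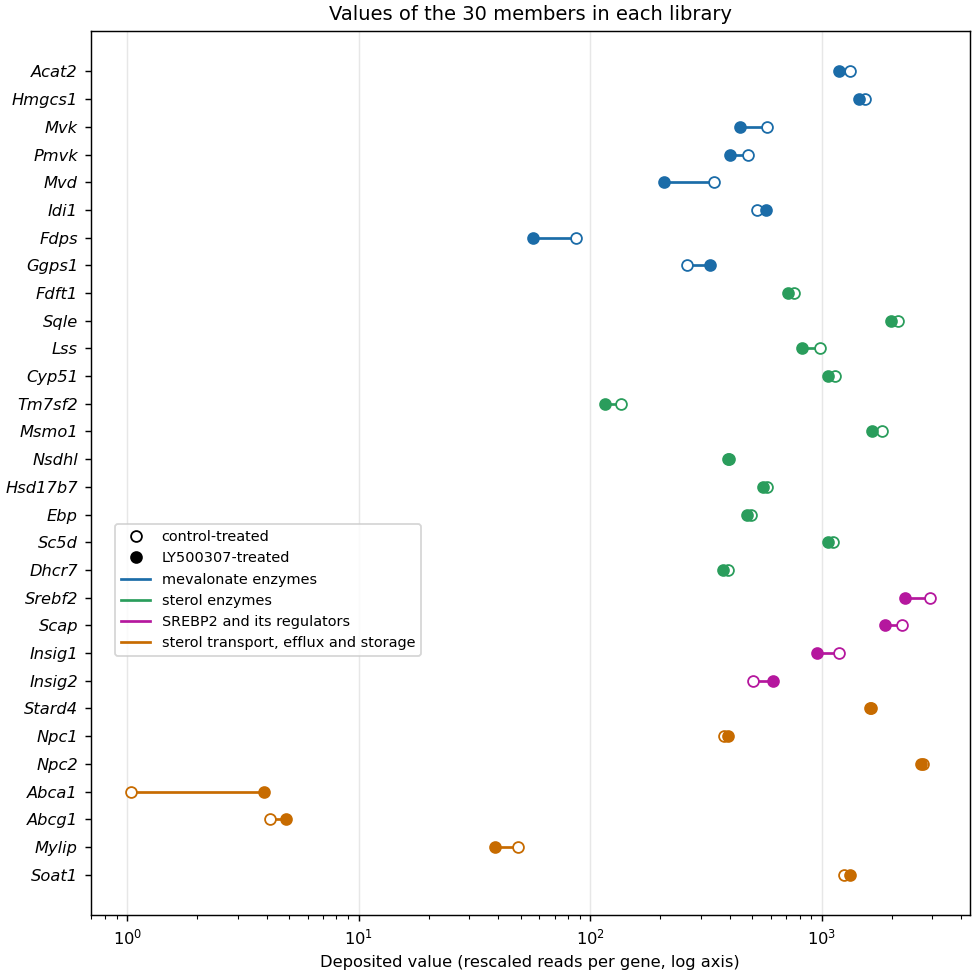
Deposited value of each of the 30 members in the control-treated library (open circles) and the LY500307-treated library (filled circles), on a log axis and coloured by role. The open circle lies to the right of the filled one for Mvd, Fdps, Mvk and Srebf2 and to the left for Ggps1 and Insig2, while Abca1 and Abcg1 lie under 5 in both libraries.

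The early, mevalonate arm of synthesis held the widest differences in both directions. Its 8 genes had a median log2 ratio of −0.20, with 6 of 8 below 0, and ran from −0.70 for Mvd to 0.33 for Ggps1. Mvd encodes the decarboxylase that makes isopentenyl diphosphate, the isoprenoid building block. Its value was 340.1 in control and 209 with LY500307, or 61.3% of control (51.4% to 73.1%). Of the 11384 genes kept, 1.04% had a log2 ratio as low or lower. The 2 kinases that act just before it had counting intervals below control, and Mvk alone of them was past the limit. Mvk had 581 and 442, or 76.1% (67.1% to 86.3%), and Pmvk had 477 and 401, or 84.0% (73.4% to 96.1%). These 3 are consecutive steps, and their transcripts are GC-rich, at 56.3% to 59.0% GC. With the GC and length trend subtracted, Mvd remained past the limit and Mvk did not.

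The entry enzymes of the route moved less. Acat2, the cytosolic thiolase that joins acetyl-CoA, had 1316 and 1187, or 90.2% of control (83.3% to 97.6%). Hmgcs1, which adds the next acetyl-CoA to form HMG-CoA, had 1541 and 1449, or 94.0% (87.5% to 101%), an interval that spans 100%. Idi1, the isomerase that follows Mvd, had 526 and 575, or 109% (97.1% to 123%). Within a library, a share of reads does not depend on the scaling between libraries. Idi1 held 60.7% of the reads of Idi1 and Mvd in the control-treated library (57.3% to 64.0%). In the LY500307-treated library Idi1 held 73.4% (70.2% to 76.4%). Mvd had the lowest log2 ratio of the members, so the gap between these shares restates the ratios of the pair and adds no support. The transcripts differ in GC content, at 41.9% for Idi1 and 59.0% for Mvd, and with the trend subtracted the log2 ratios were −0.0098 and −0.44, against 0.13 and −0.70 before.

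The prenyl synthases at the branch point lay on opposite sides of control. Fdps, which makes farnesyl diphosphate for sterols and for protein farnesylation, had 86.6 and 56.3, or 65.0% of control (45.7% to 91.9%), from only 84 and 58 reads. Ggps1 draws farnesyl diphosphate off into geranylgeranyl diphosphate, a lipid anchor of Rab proteins, and had 261 and 329, or 126% (107% to 149%). The share of Ggps1 in the reads of both was 75.1% in control (70.1% to 79.6%) and 85.4% with LY500307 (81.5% to 88.7%). These shares restate the opposite ratios of the pair and add no support. The reads of Fdps are uncertain. A gene model on the same strand, Gm43738, shares 1124 of its exon bases and had 0 and 2 reads, and the labels do not say how shared exons were counted. Near-identical copies, of at least 95% identity over 500 bases or more, exist for Acat2, Idi1, Ggps1 and Fdft1. With the reads of those copies that were in the table added, the log2 ratio was −0.15 for Acat2 and 0.16 for Idi1. The copies of Ggps1 and Fdft1 were not analysed here. Exons of Ggps1 also overlap those of Arid4b on the other strand, as given below.

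The sterol arm of synthesis was tightly grouped just below control. Its 11 genes had a median log2 ratio of −0.09, with 10 of 11 below 0, and none was past either limit. They ran from −0.26 for Lss to 0.02 for Nsdhl. Their summed value was 92.8% of control (90.2% to 95.5%). The largest difference was that of Lss, the cyclase that folds the open squalene chain into lanosterol, with 977 and 817, or 83.6% (76.1% to 91.9%). The 3 of highest value all stood within 10% of control. Sqle, the oxygenase that prepares squalene and a slow step of the route, had 2126 and 1996, or 93.9% (88.3% to 99.8%). Msmo1, which oxidises methyl groups of the ring, had 1825 and 1651, or 90.5% (84.6% to 96.8%). Cyp51, which demethylates lanosterol, had 1138 and 1066, or 93.7% (86.1% to 102%).

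The other sterol genes had counting intervals that span 100%, as did Cyp51. Sc5d, the desaturase of the ring, had 1116 and 1061, or 95.02% (87.3% to 103%), and Fdft1, squalene synthase, had 761 and 712, or 93.6% (84.4% to 104%). Hsd17b7, the ketone reductase of the methyl-removing complex, stood at 96.0% (85.3% to 108%) and its partner dehydrogenase Nsdhl at 101% (87.7% to 117%). Ebp, an isomerase, stood at 96.3% (84.7% to 109%) and Dhcr7, which reduces the last precursor to cholesterol, at 95.1% (82.3% to 109.9%). The least abundant was Tm7sf2, a sterol reductase, with 135 and 115, or 85.5% (66.2% to 110.5%). It shares 532 exon bases with Vps51 on the same strand, which had 589 and 558 reads. Exons of 8 members overlap those of a gene on the other strand. Fdft1 overlaps Ctsb over 774 bases, and Ctsb had 4720 reads in each library. Ggps1 overlaps Arid4b over 257 bases, and Arid4b had 425 reads in control and 511 with LY500307. Npc1 overlaps Rmc1 over 511 bases (309 and 412 reads), and Cyp51 overlaps Akap9 over 166 bases (1133 and 1394 reads). The library kit keeps strand, but whether the counting used it is not given.

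Among the 4 regulators, Srebf2 was past the limit of 80%. Scap and Insig1 had counting intervals below control and Insig2 one above it, and none of these 3 was past a limit. Srebf2 had 2917 in control and 2285 with LY500307, or 78.3% of control (74.1% to 82.8%). Scap had 2208 and 1863, or 84.4% (79.3% to 89.8%). The ratio of Srebf2 to Scap was nearly the same in both libraries, with Srebf2 at 56.9% of their summed reads in control (55.5% to 58.3%) and 55.1% with LY500307 (53.6% to 56.6%). With the trend in GC content and length described below subtracted, Srebf2 was no longer past the limit, at a log2 ratio of −0.16, and Scap was at −0.00085. The median of the 4 regulators was −0.28 before the subtraction and −0.080 after it.

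The Insig genes, whose proteins do a similar job, differed in direction. Insig1, itself a target of SREBP2 and a common readout of its activity, had 1181 and 955, or 80.8% of control (74.2% to 88.1%). Insig2, which SREBP2 does not drive, had 506 and 617, or 122% (108% to 137%). Insig1 made up 70.01% of the reads of the pair in the control-treated library (67.7% to 72.2%) and 60.7% with LY500307 (58.3% to 63.1%). These shares restate the ratios of the pair, and the comparison is between 2 libraries. The GC contents of the Insig transcripts were close, at 48.2% and 46.0%, and both lengths were 2697 bases, so the trend described below changed their ratios little, to −0.33 and 0.22 on the log2 scale.

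**Figure D2:**
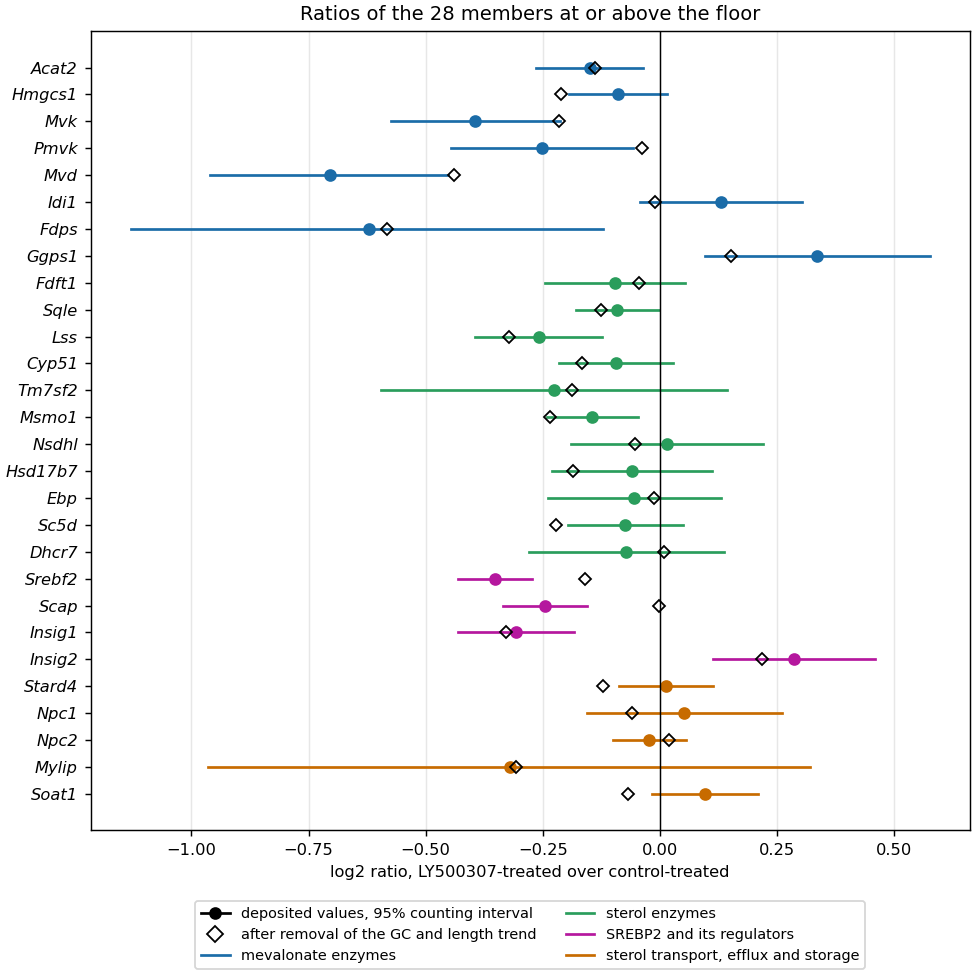
Log2 ratio of LY500307-treated to control-treated value for the 28 members at or above the floor, as circles with 95% counting intervals coloured by role, and as diamonds after removal of the trend in transcript GC content and length. Mvd, Fdps and Insig1 lie well below 0 on both scales, whereas Srebf2 and Scap move toward 0 and Scap reaches it.

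Members of sterol transport, storage and lysosomal release stood near control, apart from Mylip, which had few reads and is given below. The 5 members of this group at or above the floor had a median log2 ratio of 0.01. All 5 counting intervals spanned 100%, as did those of 6625 of the 11384 genes kept. Their summed value was 101% of control (97.5% to 105%). Npc2, which binds cholesterol in the lysosome and passes it to the membrane protein Npc1, had 2730.0 and 2688, or 98.5% (93.3% to 104%). Npc1 had 377 and 391, or 104% (89.8% to 119.8%). Stard4, a cytosolic carrier of cholesterol, had 1609.8 and 1625, or 101% (94.2% to 108%). Soat1, which esterifies cholesterol for storage, had 1242 and 1327, or 107% (98.9% to 116%). For these 4 genes the intervals bound any difference from counting alone to at most 20% in either direction. With the trend subtracted the median of the 5 was −0.068, with 4 of 5 below 0. Stard4 then went from 0.014 to −0.12 and Soat1 from 0.10 to −0.068, each a change of sign.

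The efflux genes were almost silent in both libraries. Abca1, which loads cholesterol onto lipid-poor apolipoprotein, had 1 read in control and 4 with LY500307, a ratio of 3.75 (0.373 to 185). Abcg1, which loads it onto mature particles, had 4 and 5 reads, a ratio of 1.18 (0.253 to 5.93). No difference was detectable for either at this depth, and both lay below the floor. Mylip, a ubiquitin ligase that LXR induces and that marks lipoprotein receptors for degradation, had 47 and 40 reads, or 80.1% of control (51.2% to 125%). All 3 are known LXR targets, and none is informative about a direction here.

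The ratios of the members followed the GC content of their transcripts, as those of other genes did. For the 11349 nuclear genes that reached the floor, the median log2 ratio went from 0.18 in the decile of lowest GC content to −0.29 in that of highest, with a Spearman correlation of −0.59 across them. Over the 28 members it was −0.66, given as a description because the points share both libraries. Ggps1 had the lowest GC content of the members, 40.1%, and Scap the highest, 59.1%. The genes Mvd, Scap and Srebf2 fell in the top decile and Mvk and Pmvk in the next, with decile medians of −0.29 and −0.20. Whether base composition itself contributed to a given member's ratio was not tested.

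When a smooth trend in GC content and length was subtracted, some of these differences became smaller and others larger. Scap went from −0.24 to −0.00085, Pmvk from −0.25 to −0.038, Srebf2 from −0.35 to −0.16 and Mvk from −0.39 to −0.22. Mvd went from −0.70 to −0.44, beyond its counting interval, and Fdps from −0.61 to −0.58. These with Insig1 were the 3 members then at or under 80% of control, or 10.7%, beside 5.66% of all genes with an annotated transcript. None was 25% above control, beside 5.58%, since Ggps1 went from 0.33 to 0.15. Several enzymes that stood nearer control went further below it. Msmo1 went from −0.14 to −0.24, Sc5d from −0.074 to −0.22, Hmgcs1 from −0.089 to −0.21 and Lss, just short of the limit, from −0.26 to −0.32. After subtraction 24 of the 28 members lay below 0, or 85.7%, beside 54.5% of all genes, and their median was −0.13, beside −0.02. The sterol enzymes then had a median of −0.17, with 10 of 11 below 0, and the mevalonate enzymes −0.18, with 7 of 8.

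**Figure D3:**
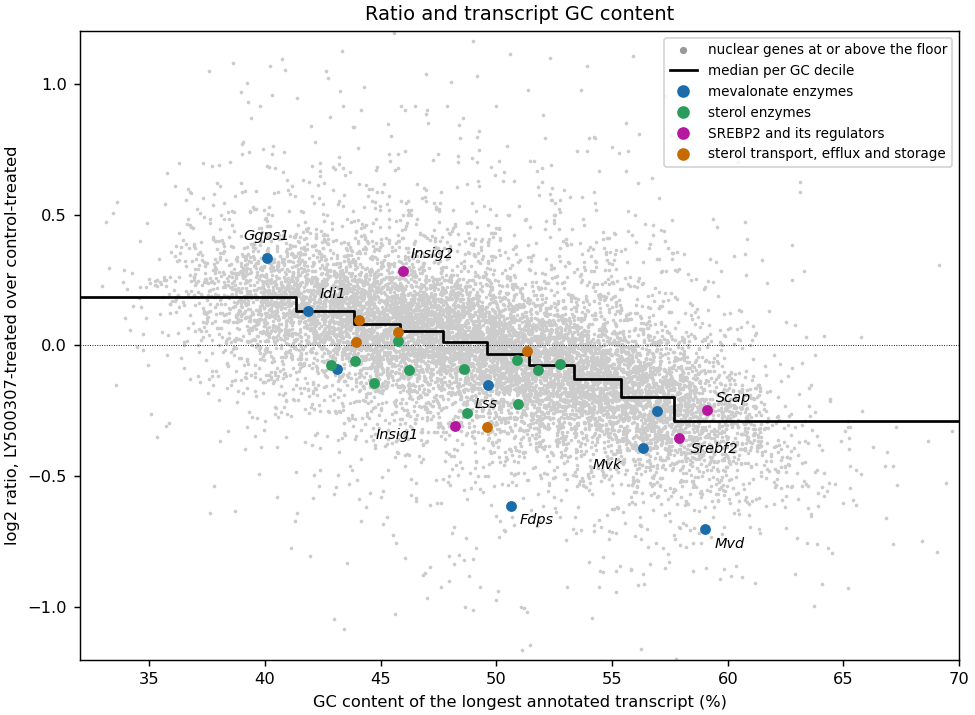
Log2 ratio against GC content of the longest annotated transcript, with the 11349 nuclear genes that reached the floor in grey (47 lie outside the axes), the median of each GC decile as a black line and the 28 members coloured by role. Scap, Srebf2 and Idi1 lie close to the line, while Mvd, Fdps and Insig1 lie below it and Insig2 above it.

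The members also differed widely in level. In RPKM, reads scaled to the length of the longest annotated transcript and to the library total, Npc2 had the highest level, 55.2 in control and 55.6 with LY500307. Msmo1 followed with 41.0 and 38.0, then Acat2 with 39.0 and 36.0, and Srebf2 with 38.3 and 30.7. The lowest at or above the floor were Fdps, with 1.96 and 1.30, and Mylip, with 1.05 and 0.864. Abcg1 had 0.0472 and 0.0568. Mvd ranked 17 of 30 in control and 23 with LY500307, while Insig2 went from rank 16 to rank 13. These levels depend on the length used. With the median length of a gene's annotated transcripts in place of the longest, Soat1 went from rank 20 to rank 3 and Scap from rank 5 to rank 1 in the control-treated library, so only the extremes of the order, Mylip, Abcg1 and Abca1 at the bottom, should be read from it.

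**Figure D4:**
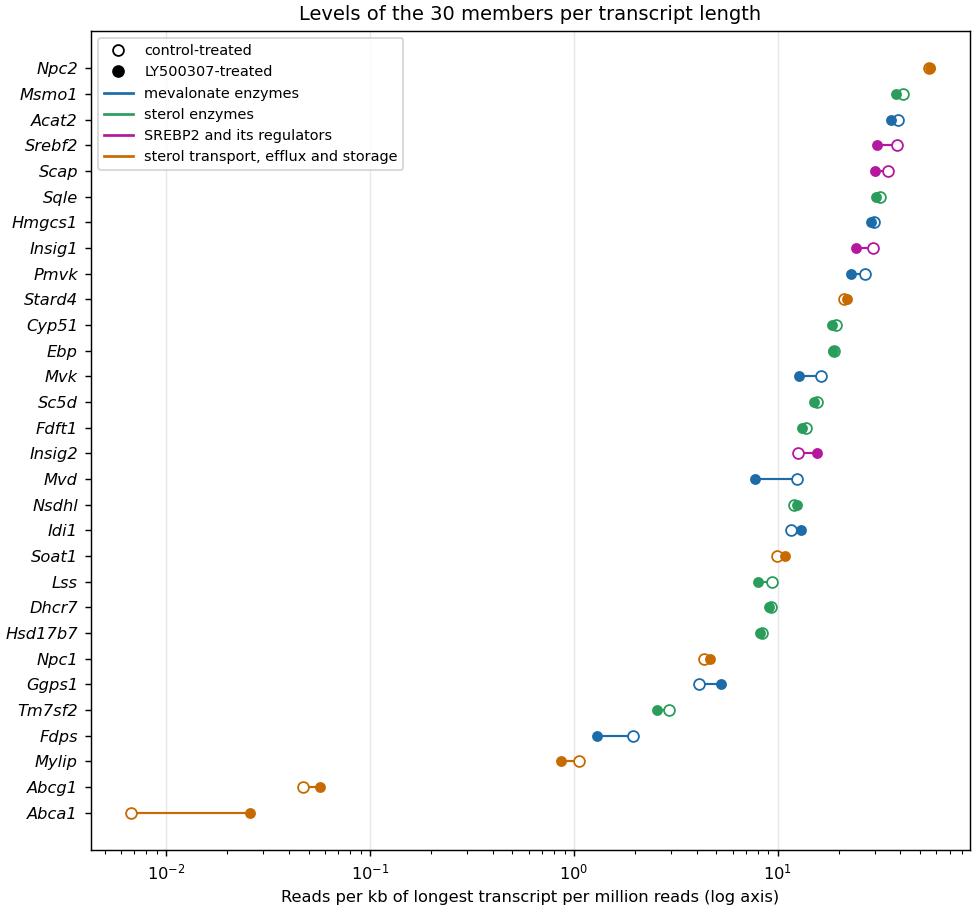
Level of each of the 30 members in RPKM on the longest annotated transcript, on a log axis, with open circles for the control-treated and filled circles for the LY500307-treated library, sorted by the former. The levels run from Npc2, at 55.2, down to Mylip, at 1.05, and then to Abcg1 and Abca1.

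Other genes of sterol metabolism, from 7 lists of 81 symbols, were counted in the same way. Of the 70 that reached the floor, 9 were at most 80% of control and 4 at least 25% above it, beside 11.1% and 7.15% of all genes kept. With the trend subtracted these counts were 4 and 2 of the 70, beside 5.66% and 5.58% of all genes with an annotated transcript. The genes that process SREBP or degrade sterol-regulated proteins had none of 13 past either limit and a median log2 ratio of 0.01. Among them Pgrmc1, a haem-binding partner of sterol enzymes, stood at 116% of control (108% to 124%), Vcp, the segregase that extracts proteins from the membrane, at 113% (109.9% to 117%), and Mbtps2, the protease that makes the final cut in SREBP, at 113% (103% to 123%). Erlin1 stood at 112% (104% to 121%) and Rnf139, named after its value was seen, at 110% (103% to 117%). These intervals lay above control, as did those of 18.1% of all genes, and no gene of the list had one below. Subtracting the trend left log2 ratios of 0.13 for Pgrmc1, 0.19 for Vcp and 0.095 for Erlin1. Mbtps2 went from 0.17 to −0.022 and Rnf139 from 0.14 to −0.029, each a change of sign. All 4 genes that supply acetyl-CoA were below control, where 52.8% of all genes kept were below 0 on the log2 scale. Acss2, which makes it from acetate and is a known SREBP target, stood at 78.0% (68.0% to 89.4%), the citrate carrier Slc25a1 at 78.7% (72.0% to 86.0%), the citrate lyase Acly at 85.2% (82.0% to 88.4%) and the mitochondrial thiolase Acat1 at 91.9% (86.7% to 97.5%). After subtraction of the trend the log2 ratio was −0.40 for Acss2, −0.081 for Slc25a1, −0.19 for Acly and −0.20 for Acat1.

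The isoprenoid branch beyond Ggps1 had 1 of 16 genes at most 80% of control and none 25% above it, with a median of 0.04. The exception was Rabggta, a subunit of the enzyme that prenylates Rab proteins, at 75.1% (67.7% to 83.1%), while the other subunit, Rabggtb, named after its value was seen, stood at 111% (105% to 118%). With the trend subtracted Rabggta was no longer past the limit, at a log2 ratio of −0.27, and Rabggtb was at 0.053. Their GC contents were 55.0% and 44.2%. Coq2, of ubiquinone synthesis, stood at 80.2% (71.7% to 89.7%), Rce1, a protease for prenylated proteins, at 82.0% (72.1% to 93.2%), and Zmpste24, which trims farnesylated proteins, at 119% (111% to 127%). Their log2 ratios after the subtraction were −0.19, −0.074 and 0.084. Cofactors and alternative sterol enzymes had none of 7 past either limit and a median of −0.10. The P450 reductase Por stood at 88.2% (83.3% to 93.4%), the cytochrome reductase Cyb5r3 at 87.4% (82.6% to 92.6%) and its partner Cyb5a at 86.3% (69.5% to 107%). Once the trend was subtracted, Por changed sign, from a log2 ratio of −0.18 to 0.056. Cyb5r3 was then at −0.045 and Cyb5a at −0.17.

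Transport and uptake genes had 2 of 18 at most 80% of control and 3 at least 25% above it on the pseudocount scale. Tspo, an outer mitochondrial cholesterol-binding protein, had 2146 and 1452, or 67.7% (63.3% to 72.3%), and Stard5, a sterol carrier with 60 and 48 reads, 75.3% (50.4% to 112%). Osbpl8, an oxysterol-binding homologue, stood at 137% (121% to 156%) and Gramd1c, a membrane-contact sterol carrier with 47 and 77 reads, at 154% (106% to 227%). The third above the limit, Cav1, the caveolar coat protein, named after its value was seen, stood at 125% (103% to 152%). After the subtraction the log2 ratio of Tspo was −0.28 and that of Osbpl8 0.24. Stard5 was then at −0.36, Gramd1c at 0.48 and Cav1 at 0.20.

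Of 8 genes of LXR receptors and other targets, 2 were at most 80% of control and 1 at least 25% above it, with a median log2 ratio of −0.21. The LXR beta gene Nr1h2 stood at 79.0% (70.2% to 88.9%) and its partner Rxrb at 78.5% (71.4% to 86.3%), and after the subtraction their log2 ratios were −0.030 and −0.015. Their transcripts are GC-rich, with a median of 58.1% over the list. Abca7, a lipid transporter, stood at 83.5% (74.9% to 93.1%), with a log2 ratio of −0.056 after the subtraction. The target Pltp, a lipid transfer protein, had 18 and 38 reads, or 199% (111% to 370.0%). Pltp, the 1 gene counted above the limit, reached the floor only through the LY500307 library, so its count there carries no weight. Of 4 genes of esterification, hydrolysis and oxysterols at or above the floor, 2 were at most 80% of control, beside 11.1% of all genes. None was at least 25% above it, beside 7.15%. The sulfotransferase Sult2b1 stood at 69.5% (51.3% to 93.8%), with 107 and 79 reads. The hydroxylase Cyp39a1 stood at 72.5% (56.3% to 93.2%), with 148 and 114 reads. The other genes of this list at or above the floor stood nearer control, Lipe at 107% (83.5% to 138%) and Nceh1 at 99.1% (89.6% to 109.7%).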

How the data were processed

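Libraries were made from ribosomal RNA-depleted total RNA of 1 control-treated and 1 LY500307-treated sample with a stranded kit, per the labels' protocols. CASAVA 1.8, Bowtie2 and build mm9 are named in the submitters' processing notes. Nothing read here names the counting tool, annotation or scaling. The deposited signal values were found to be whole reads times 1.03 (control) and 0.970 (LY500307), with 100% of values within 0.05 of a whole read. This scaling lowers the LY500307 library against read totals by a log2 value of −0.03. Symbols, GC content and lengths came from GENCODE M21, which named 19443 of 19498 IDs. The log2 ratio used a pseudocount of 1.03 and a floor of 33.0, the percentiles 5 and 40 of values above 0. Single-gene folds are plain ratios of deposited values, with intervals from the reads. The trend came from Huber regression over nuclear genes, with natural spline terms (5 degrees of freedom each) for GC content and log length. The scripts were tested on simulated data. With 1 library per group no test was run and no p-value is given. All members are named, with up to 4 genes of each other list, those of largest ratio, and Rabggtb, Cav1 and Rnf139 besides, chosen after their values were seen. The members and lists were chosen with earlier results of these data known. The pairs of genes for shares of reads were picked by hand, and how often other pairs differ as much was not counted. The alternatives were another pseudocount, floor, scaling, fold limit and transcript length, and removal of the trend. Python 3.11.15, numpy 2.4.6, pandas 2.3.3, scipy 1.17.1, statsmodels 0.14.6, matplotlib 3.10.9 and blastn 2.17.0 were used.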

Additional observations from a re-analysis of the deposited data

How the results depend on the processing

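The count of members at most 80% of control was 4 and stayed between 3 and 4 with a pseudocount of 10, no floor, a floor of 50 reads, scaling to read totals, centring on all genes and trend removal, and was 2 at 1.5-fold. Scaled to read totals, Srebf2 was no longer past the limit, with a log2 ratio of −0.32. The count at least 25% above control was 1 and became 2 with no floor, through Abca1 at 1 and 4 reads. It became 0 at 1.5-fold, once the trend in GC and length was subtracted, and, in alternatives chosen after seeing the data, with the GC trend alone and without members that have near-identical copies. Members below 0 numbered 21 of 28 and, in the alternatives, between 19 and 24. The 19 were of the 24 members left without those that have near-identical copies, and the 24 were of 28 with the GC and length trend subtracted. The median log2 ratio lay between −0.13 and −0.06. Summed enzymes stayed between 91.8% and 94.1% of control. Trend removal moved 8 of 30 member ratios beyond their counting intervals, and the cause was not tested. The median transcript length moved 27 of 30 levels. No direction that passed a limit was reversed in these alternatives. The median half-width of the counting interval was 0.16 on the log2 scale. No paired analysis was possible because each group has 1 library.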
